A study of Drosophila melanogaster with 12 samples.

Results

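Mitochondrial ribosomal protein genes were taken from an array study of fly brains that express a transcript with or without a CAG repeat. The members are all genes whose symbol begins with mRpL (large subunit) or mRpS (small subunit) and that have a probe set naming them alone. By that rule 69 genes were found among 11982 genes with a probe set of their own, 44 of the large and 25 of the small subunit. Where a gene had several probe sets, the one with the highest mean over the 12 arrays stood for it. The gene table lists 73 such genes, and the other 4 have no probe set that names them alone. Of these, mRpS10 and mRpL53 appear only in probe sets that also name a second gene, and mRpL34 and mRpL37 are not analysed here.

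Each sample was total RNA from about 20 brains of 3-day-old female Drosophila melanogaster, with the eyes, the lamina and the outer medulla cut away, and each genotype had 4 samples. CAG100 flies (genotype elav-GAL4; UAS-DsRed-CAG100) carried 5 copies of a DsRed reporter with 100 CAG units in its 3′ untranslated region, the repeat RNA the study treats as toxic. CAA/G105 flies (elav-GAL4; UAS-DsRed-CAA/G105) carried 2 copies of the reporter with an interrupted repeat, which the study treats as non-toxic, and CAG0 flies (elav-GAL4; UAS-DsRed-CAG0) carried 1 copy without a repeat. According to the design text, copies were chosen so that transgene mRNA was matched, and every group, CAG0 included, carries the elav-GAL4 driver, which acts in neurons, and the DsRed reporter. Copy number, any other difference between the fly lines and the repeat itself cannot be told apart here. The RNA came from whole brain tissue, so glia and other cells that do not use the driver contribute to every value.

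Mitochondria hold their own ribosome, which translates the few proteins encoded by mitochondrial DNA, all of them core parts of the respiratory chain and of the ATP synthase. The ribosomal RNAs come from mitochondrial DNA, while every protein of both subunits is encoded in the nucleus, made in the cytosol and imported. Many of these proteins descend from bacterial ribosomal proteins and carry the same number, while others, mostly with higher numbers, were added in mitochondria. In the brain the respiratory chain supplies most of the ATP that synaptic activity consumes.

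The values are log2 expression per probe set, as the authors normalised them. Tests were limited to probe sets with log2 4 or more on 4 or more arrays, which all 69 genes and 8966 of the 18952 probe sets met. The genes' means over the 12 arrays lay between log2 7.69 and 14.1, and the spread between arrays of a genotype was small, with a median SD of 0.10 over the genes (range 0.02 to 0.23) against 0.12 over all tested probe sets. Differences are on the log2 scale, and a gene passed at an adjusted p under 0.05 in limma, adjusted over all tested probe sets. These p-values measure only the spread between the samples, and the 4 arrays of a genotype limit their precision.

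The tissue label was set against marker genes. The neuronal genes elav and nSyb averaged log2 13.69 ± 0.03 and 13.01 ± 0.08 in CAG100, 13.73 ± 0.05 and 12.96 ± 0.05 in CAA/G105, and 13.77 ± 0.08 and 12.96 ± 0.11 in CAG0 (SD, n = 4 each), and the glial gene repo lay between 13.3 and 13.5 in every genotype. None of the 5 neuronal markers passed in limma in any comparison (at an unadjusted p under 0.05, 1 was lower in CAA/G105 against CAG0 and none otherwise). Of 6 glial markers 1 fell in CAG100 against CAG0 (alrm) and 2 rose in CAA/G105 against CAG0 (moody and repo). In CAG100 against CAA/G105, 2 fell (alrm and repo). The difference of repo was 0.145 in CAA/G105 against CAG0 (adjusted p = 0.0112) and -0.10 in CAG100 against CAA/G105 (adjusted p = 0.0447). Genes of other tissues were present in every genotype. The photoreceptor gene Arr2 averaged log2 14.13, 13.90 and 14.13 in CAG100, CAA/G105 and CAG0, although the eyes were cut away. The fat body gene Yp1 averaged 14.74, 14.69 and 14.69 in them. Of 6 photoreceptor markers only rdgA passed in limma, with -0.23 in CAG100 against CAG0 (adjusted p = 0.0333). Of 7 fat body markers only Yp3 passed, with 0.37 in CAG100 against CAA/G105 (adjusted p = 0.0377). The summed photoreceptor markers overlapped between the genotypes. The summed fat body markers lay between log2 16.53 and 16.72 in CAG100, 16.33 and 16.47 in CAA/G105, and 16.28 and 16.67 in CAG0. For these, CAG100 was above CAA/G105 on every array, and CAG0 overlapped both. The muscle gene fln averaged log2 9.92 ± 0.03 in CAG100 brains, 7.99 ± 0.16 in CAA/G105 brains and 9.94 ± 0.20 in CAG0 brains (SD, n = 4 each). It was 3.88-fold lower in CAA/G105 against CAG0 (adjusted p = 6.91e-08) and differed by 3.82-fold between CAG100 and CAA/G105 (adjusted p = 7.14e-08), while the summed muscle markers overlapped. The summed haemocyte markers lay between log2 15.13 and 15.32 in CAG100, 14.78 and 15.03 in CAA/G105, and 15.04 and 15.46 in CAG0, so that CAA/G105 was below both others on every array. Akh, the gene of a hormone made in a gland behind the brain, stood at log2 2.25 and 2.43 in replicates 1 and 3 of CAG100 and at 2.06 in replicate 3 of CAA/G105, and lay between log2 11.04 and 13.0 on the other arrays. The part of these differences in the values below was not tested, and counts without the 3 arrays that lack Akh signal are given beside them. Those counts rest on fewer arrays of both repeat genotypes, so a difference of the same size passes less easily.

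Taken as a group, mitochondrial ribosomal protein genes differed little between the genotypes. Their mean over the 69 genes was log2 11.31, 11.36, 11.47 and 11.46 on the CAG100 arrays, 11.41, 11.24, 11.32 and 11.41 on the CAA/G105 arrays, and 11.31, 11.44, 11.24 and 11.36 on the CAG0 arrays. The 3 genotypes overlapped, with group means of 11.40 ± 0.08, 11.35 ± 0.08 and 11.34 ± 0.09 (SD, n = 4 each) in CAG100, CAA/G105 and CAG0. The plot of summaries per array sets these means beside the median of all tested probe sets, which also overlapped between genotypes.

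**Figure D1:**
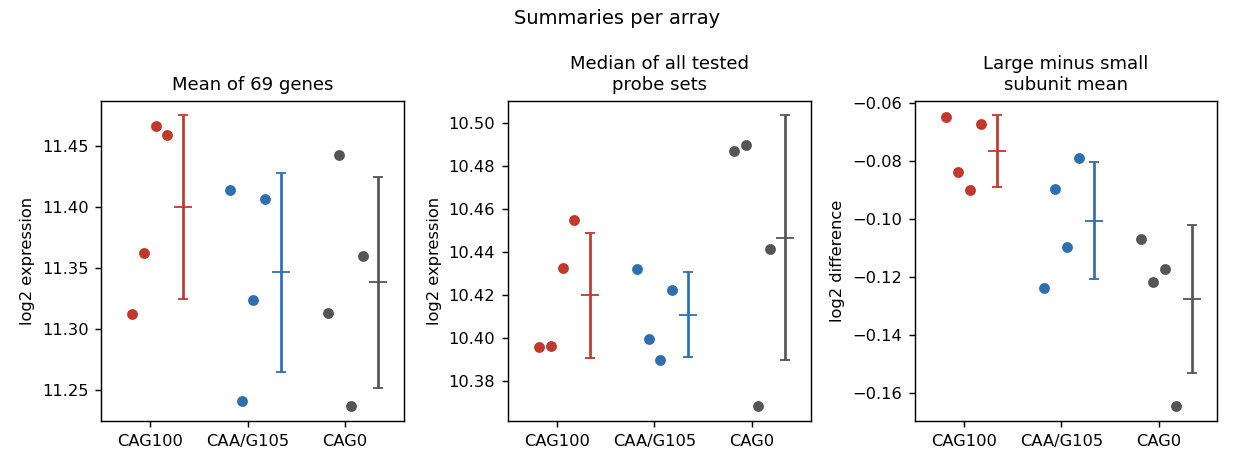
Summaries of each array, with 1 point per array and a bar for mean ± SD of the 4 arrays of a genotype (CAG100, CAA/G105, CAG0). The left panel shows the mean log2 expression of the 69 genes, the middle panel the median log2 expression of all tested probe sets, and the right panel the mean of the large subunit genes minus that of the small subunit genes. The left and middle panels overlap between genotypes, while in the right panel all CAG100 arrays lie above all CAG0 arrays.

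The single genes showed the same small size of difference. Against CAG0, the median difference over the 69 genes was 0.07 in CAG100, with 53 of 69 above 0, while over all tested probe sets the median was -0.03 and 43.3% were above 0. In CAA/G105 against CAG0 the median was 0.01, with 36 of 69 above 0, against -0.01 and 47.5% over all tested probe sets. Set against CAA/G105, CAG100 had a median of 0.08, with 49 of 69 above 0, against -0.02 and 46.2%. A median of 0.07 to 0.08 is about as large as the SD of the genes' array mean between arrays of 1 genotype (0.08, pooled), and leaving out single arrays moved it between 0.05 and 0.12 for CAG100 against CAG0 and between 0.04 and 0.11 for CAG100 against CAA/G105. The cumulative plot of the differences shows that the genes' curve lies to the right of the curve of all probe sets around 0 in both comparisons with CAG100. These comparisons share samples, so their shifts are not separate observations.

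**Figure D2:**
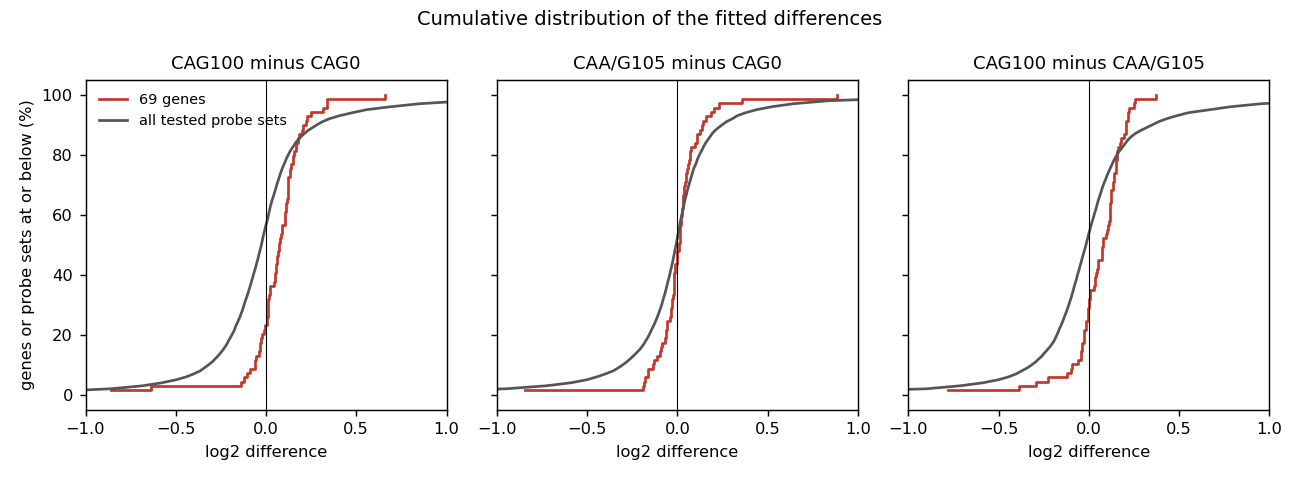
Share of the 69 genes (red) and of all tested probe sets (grey) at or below a given log2 difference, in CAG100 minus CAG0, CAA/G105 minus CAG0 and CAG100 minus CAA/G105. The axis runs from -1 to 1, and some probe sets lie outside it. The median of the genes is 0.07, 0.01 and 0.08 in these panels, and that of all tested probe sets is -0.03, -0.01 and -0.02.

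Few genes changed much, as was true of probe sets in general. A difference of at least 1.5-fold in either direction was found for 3 of the 69 genes in CAG100 against CAG0 (mRpS24, mRpS6 and mRpL54), for 2 in CAA/G105 against CAG0 (mRpS24 and mRpL54) and for 1 in CAG100 against CAA/G105 (mRpS6). These are 4.35%, 2.9% and 1.45% of the genes, beside 5.38%, 4.51% and 6.33% of probe sets in the genes' range of mean expression and 8.65%, 7.48% and 9.7% of all tested probe sets. The 95% interval of the difference stayed within 1.5-fold either way for 64 of 69 genes (92.8%) in CAG100 against CAG0, compared with 78.8% of all tested probe sets. For CAA/G105 against CAG0 this held for 67 genes (97.1%, against 79.8%), and for CAG100 against CAA/G105 for 68 (98.6%, against 77.4%). The genes were thus bounded more tightly than probe sets in general, which also have the wider spread between arrays given above. In bulk tissue a lower value from fewer cells of a type cannot be told apart from less RNA per cell.

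In CAG100 against CAG0, 7 of the 69 genes (10.1%) passed, 5 higher and 2 lower, while 18.3% of all tested probe sets passed, 7.86% higher and 10.4% lower. In CAA/G105 against CAG0, 3 genes (4.35%) passed, 2 higher and 1 lower, against 13.2% of all probe sets, 5.49% higher and 7.72% lower. In CAG100 against CAA/G105, 11 genes (15.9%) passed, 8 higher and 3 lower, against 20.8% of all probe sets, 10.4% higher and 10.5% lower. The share that passed in either direction was below its background in each comparison, while the share that passed higher in CAG100 against CAA/G105 (11.6%) was near the 10.4% of all probe sets. Within the genes' own range of mean expression the background was much the same, at 17.9%, 12.5% and 20.9% of 7003 probe sets in these comparisons. With every array shifted to 1 common median, 15 genes (13 higher and 2 lower, 21.7%) passed in CAG100 against CAG0 and 16 (13 higher and 3 lower, 23.2%) in CAG100 against CAA/G105. The background was then 18.2%, with 877 probe sets higher and 751 lower, and 21.3%, so the low share holds under that scaling only in CAA/G105 against CAG0, where 5 genes (4 higher and 1 lower, 7.25% against 13.3%) passed. With no filter on low values the genes' share was likewise above the background in CAG100 against CAG0 (6 genes, 8.7% against 6.73%) and in CAG100 against CAA/G105 (8 genes, 11.6% against 8.44%), and close to it in CAA/G105 against CAG0 (3 genes, 4.35% against 4.94%). That background includes the 9803 probe sets left out by the filter, while all 69 genes meet it. With quantile normalization the genes' shares stayed lower, at 13%, 7.25% and 20.3% against 18.1%, 13.6% and 22.1% in the 3 comparisons. With array weights they were 13%, 8.7% and 23.2% against 26.6%, 17.8% and 28.6%. The low share thus depended on the scaling and on the probe sets it was set against. Without the 3 arrays that lack Akh signal, 5, 2 and 2 genes passed in the 3 comparisons, against 10.6%, 9.54% and 10.3% of all probe sets.

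In all, 15 genes passed in at least 1 comparison and 54 in none. The plot of all 69 genes shows that most intervals include 0 in each comparison and that a few genes stand far from the others.

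**Figure D3:**
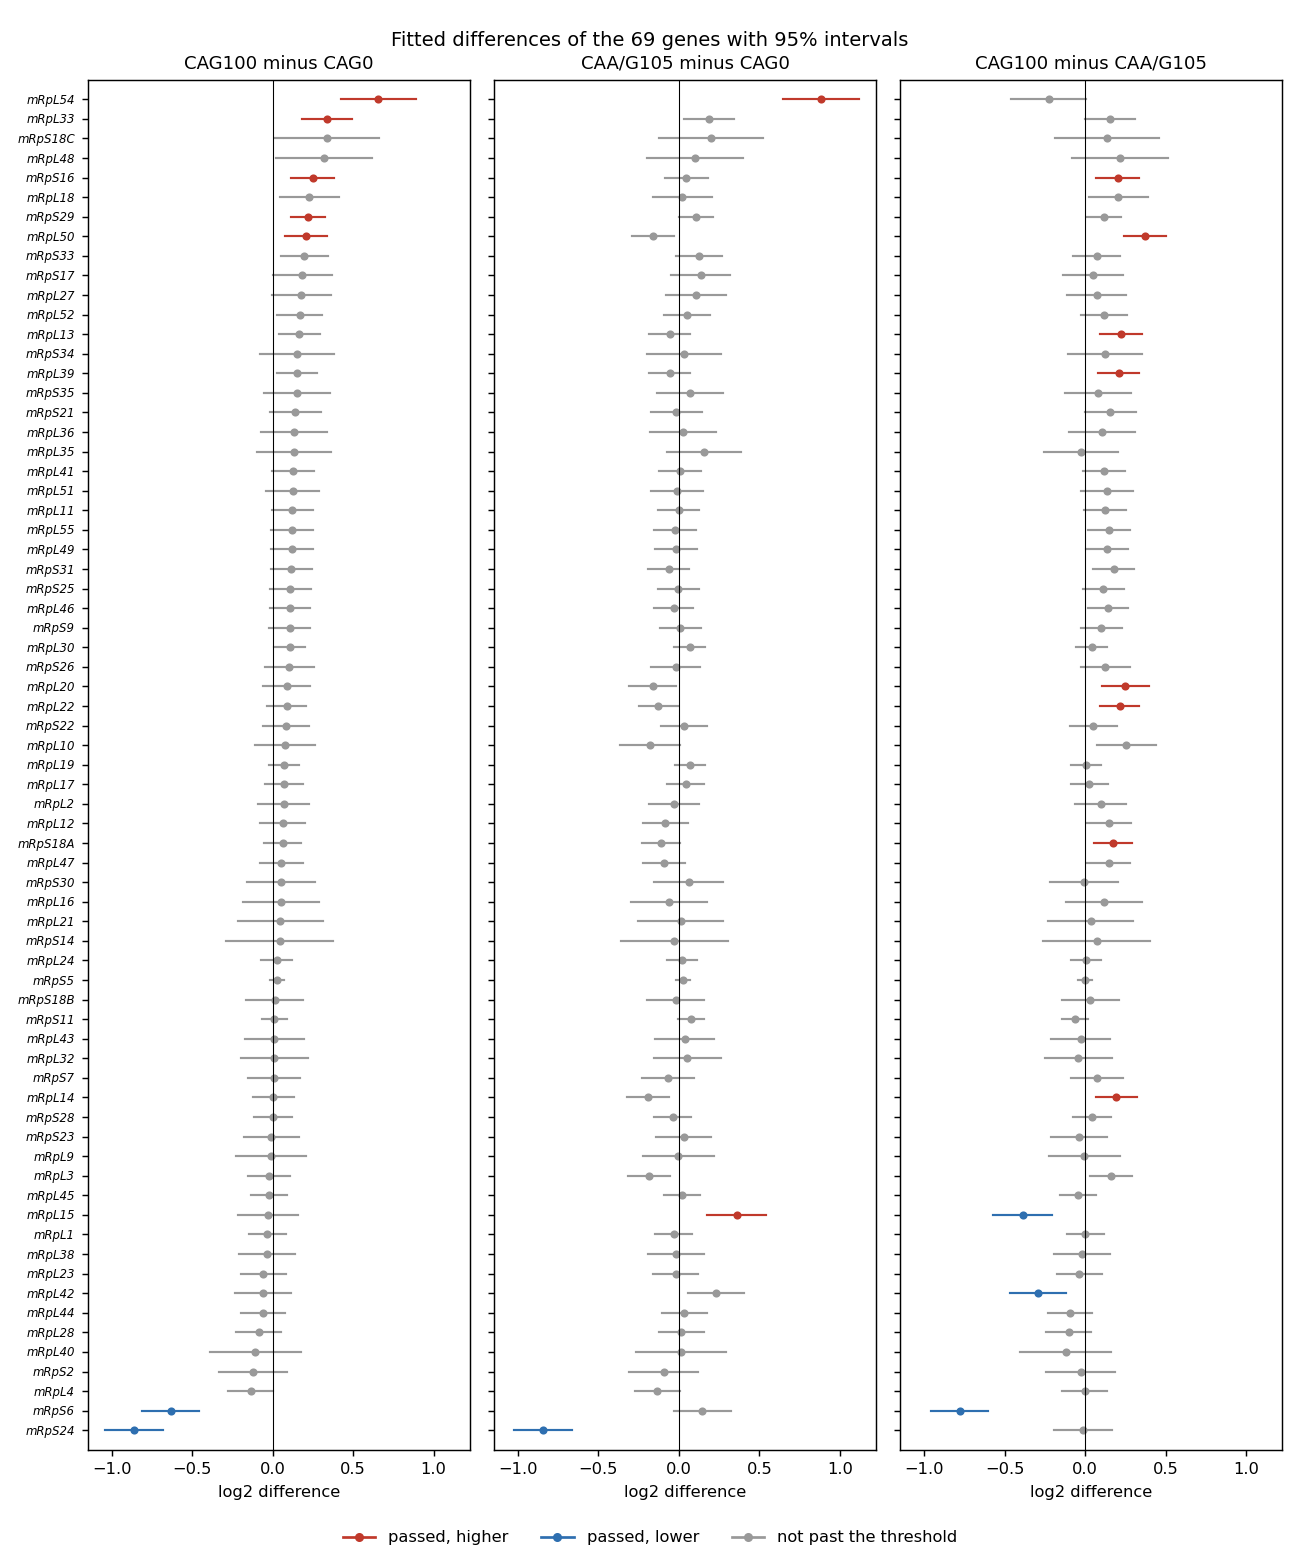
Fitted log2 difference (point) and 95% interval (line) of each of the 69 genes in CAG100 minus CAG0, CAA/G105 minus CAG0 and CAG100 minus CAA/G105, ordered by the first of these. Red and blue mark genes that passed higher or lower (5 and 2, 2 and 1, and 8 and 3 genes), and grey marks the others. mRpS24, mRpS6 and mRpL54 lie farthest from 0.

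The small subunit gene with the largest difference was mRpS24 (CG13608, on chromosome 3R), whose mammalian counterpart lies near the mRNA entry of the small subunit. Its log2 expression was 9.96, 10.05, 10.28 and 10.09 on the CAG100 arrays, 10.21, 10.05, 10.09 and 10.09 on the CAA/G105 arrays, and 10.91, 11.13, 10.81 and 10.98 on the CAG0 arrays. Both repeat genotypes lay below all CAG0 arrays and overlapped each other. mRpS24 fell by 0.86 in CAG100 against CAG0 (SE 0.08, 1.82-fold lower, adjusted p = 2.03e-05) and by 0.85 in CAA/G105 against CAG0 (SE 0.08, 1.80-fold lower, adjusted p = 2.09e-05). CAG100 minus CAA/G105 was -0.01, with a 95% interval from -0.19 to 0.17 (adjusted p = 0.922). The fall against CAG0 passed in both comparisons under every alternative tried. Both comparisons use the same CAG0 arrays. TBC1d7, the gene next to mRpS24 among the genes with a tested probe set, fell with it, by 0.36 in CAG100 (adjusted p = 0.00825) and by 0.39 in CAA/G105 (adjusted p = 0.0057), while CG5510 on the other side did not pass (-0.06 and -0.05).

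mRpS6 (CG15016, on chromosome 3L), named after a bacterial protein of the small subunit's platform, fell in CAG100 against both other genotypes. It stood at log2 10.21, 10.18, 10.29 and 10.39 in CAG100, at 11.21, 10.82, 11.07 and 11.08 in CAA/G105, and at 10.82, 10.94, 10.86 and 10.99 in CAG0. The CAG100 arrays lay below all others, and the CAA/G105 and CAG0 arrays overlapped. mRpS6 fell in CAG100 by 0.64 against CAG0 (SE 0.08, 1.55-fold lower, adjusted p = 0.000212) and by 0.78 against CAA/G105 (SE 0.08, 1.72-fold lower, adjusted p = 2.95e-05), both under every alternative tried. In CAA/G105 against CAG0 its difference was 0.14 (95% interval -0.03 to 0.32, adjusted p = 0.295). Neither neighbouring gene passed in any comparison: Cip4 had differences of -0.03 and -0.08 in CAG100 against CAG0 and against CAA/G105, and DopEcR -0.09 and 0.00.

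Among the other small subunit genes, only mRpS29, mRpS16 and mRpS18A passed anywhere. mRpS29 (CG3633), known in mammals as the GTP-binding protein DAP3, had log2 11.05, 11.10, 11.09 and 11.03 in CAG100, 11.03, 10.94, 10.92 and 10.93 in CAA/G105, and 10.79, 10.94, 10.80 and 10.86 in CAG0. All CAG100 arrays lay above all CAG0 arrays, by 0.22 on average (SE 0.05, adjusted p = 0.00777), and CAA/G105 lay between (0.11 over CAG0, adjusted p = 0.182). The CAG100 call was lost without the arrays that lack Akh signal (adjusted p = 0.0728), where the difference was still 0.22. It passed under the other 22 alternatives, with an adjusted p of 0.00349 at the lowest.

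mRpS16 (CG8338), whose bacterial counterpart takes part in small subunit assembly, had log2 12.21, 12.31, 12.29 and 12.40 in CAG100, 12.16, 12.01, 12.05 and 12.17 in CAA/G105, and 11.91, 12.16, 12.05 and 12.09 in CAG0. CAG100 was above both other genotypes on every array, by 0.25 against CAG0 (SE 0.06, adjusted p = 0.0146) and by 0.20 against CAA/G105 (SE 0.06, adjusted p = 0.0339). CAA/G105 and CAG0 overlapped. mRpS33 came close in CAG100 against CAG0, with a difference of 0.20 (adjusted p = 0.0599), and mRpS18C, with a difference of 0.34, had a wide interval from 0.01 to 0.66 (adjusted p = 0.142). mRpS5 varied least of all the genes, lying between log2 14.08 and 14.14 on the 12 arrays.

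Of the large subunit genes, mRpL54 (CG9353, on chromosome 2R), a protein without a bacterial counterpart, differed most. Its log2 expression was 11.03, 10.95, 11.02 and 10.99 in CAG100, 11.43, 11.17, 11.13 and 11.17 in CAA/G105, and 10.04, 10.64, 10.39 and 10.28 in CAG0. All arrays of both repeat genotypes lay above all CAG0 arrays, and the CAA/G105 arrays lay above the CAG100 arrays. mRpL54 rose by 0.66 in CAG100 against CAG0 (SE 0.11, 1.58-fold, adjusted p = 0.00124) and by 0.88 in CAA/G105 against CAG0 (SE 0.11, 1.84-fold, adjusted p = 0.00014), and both calls held under every alternative tried. CAG100 minus CAA/G105 was -0.23, with a 95% interval from -0.46 to 0.01 (adjusted p = 0.158). Its neighbour CG15653 went the other way, with -0.49 in CAG100 (adjusted p = 0.0478) and -1.20 in CAA/G105 (adjusted p = 0.000254) against CAG0, and CG10527 on the other side did not pass (-0.03 and -0.08). Both rises again rest on the same CAG0 arrays, among which mRpL54 had the widest spread of the 3 genotypes (SD 0.25, against 0.03 in CAG100 and 0.14 in CAA/G105).

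mRpL33 (CG3712, on chromosome X), a small protein that in bacteria binds the large ribosomal RNA, had log2 11.91, 12.05, 12.09 and 12.24 in CAG100, 11.92, 11.90, 11.80 and 12.05 in CAA/G105, and 11.64, 11.79, 11.78 and 11.71 in CAG0. Both repeat genotypes lay above all CAG0 arrays. The difference from CAG0 was 0.34 in CAG100 (SE 0.07, adjusted p = 0.00618), which held under every alternative, and 0.18 in CAA/G105, which did not pass (95% interval 0.03 to 0.34, adjusted p = 0.118). CAG100 minus CAA/G105 was 0.15 (adjusted p = 0.146).

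mRpL50 (CG8612), another protein without a bacterial counterpart, had log2 12.21, 12.26, 12.30 and 12.38 in CAG100, 11.94, 11.77, 11.93 and 12.04 in CAA/G105, and 12.00, 12.14, 12.07 and 12.12 in CAG0. CAG100 lay above both others on every array. The difference was 0.37 against CAA/G105 (SE 0.06, adjusted p = 0.000884), kept under every alternative, and 0.21 against CAG0 (SE 0.06, adjusted p = 0.0312). The call against CAG0 was lost without any 1 of CAG0 replicates 1, 3 and 4 or CAG100 replicates 2, 3 and 4 (adjusted p between 0.0513 and 0.0895) and without the arrays that lack Akh signal (0.0905). It passed under 14 of 23 alternatives. CAA/G105 minus CAG0 was -0.16 (adjusted p = 0.0988).

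mRpL15 (CG5219), whose bacterial counterpart joins late in large subunit assembly, was the one gene that passed higher in CAA/G105 against both others. It had log2 10.63, 10.49, 10.74 and 10.73 in CAG100, 11.05, 10.92, 11.03 and 11.14 in CAA/G105, and 10.72, 10.86, 10.48 and 10.66 in CAG0. CAA/G105 exceeded CAG0 by 0.36 (SE 0.09, adjusted p = 0.0148), and CAG100 minus CAA/G105 was -0.39 (SE 0.09, adjusted p = 0.0067), while CAG100 and CAG0 overlapped with a difference of -0.03. Neither call passed without the arrays that lack Akh signal (adjusted p = 0.0632 for CAA/G105 against CAG0 and 0.0607 for CAG100 against CAA/G105), where the differences were 0.36 and -0.43. They passed under 21 and 22 of 23 alternatives.

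**Figure D4:**
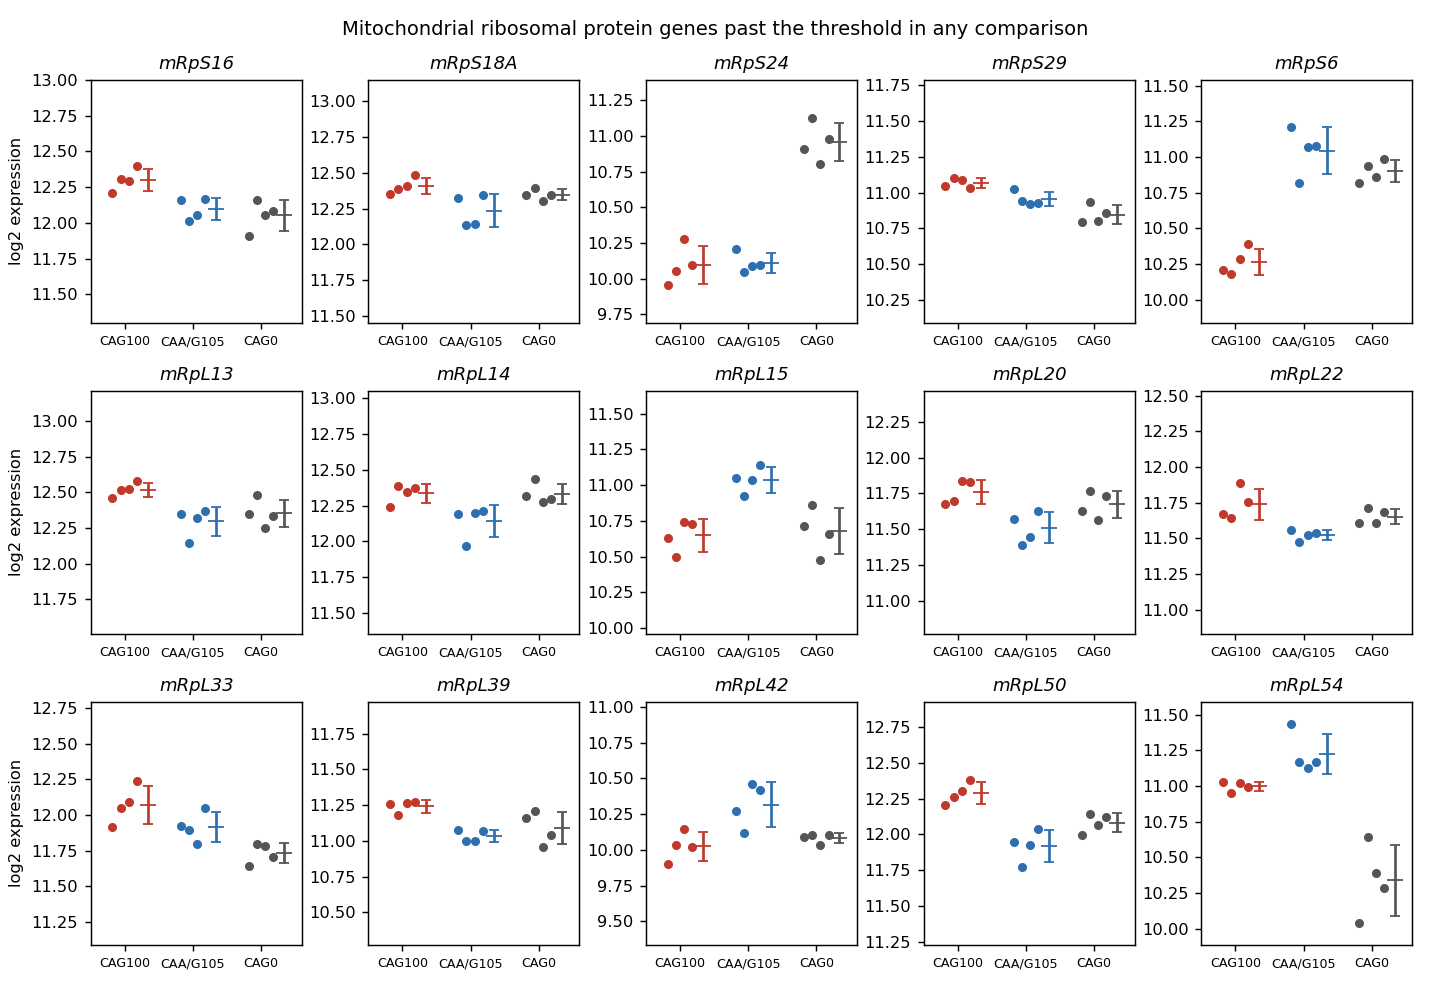
Log2 expression of the 15 genes that passed in at least 1 comparison, with 1 point per array and a bar for mean ± SD of the 4 arrays of CAG100, CAA/G105 and CAG0. Each panel spans the same log2 range around its own centre, so distances can be compared between panels. mRpS24 is low in both repeat genotypes, mRpL54 is high in both, mRpS6 is low in CAG100, and mRpL15 is high in CAA/G105.

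The remaining 7 genes that passed did so only in CAG100 against CAA/G105, by small amounts, and neither repeat genotype passed against CAG0 for them. Higher in CAG100 than in CAA/G105 were mRpL22 (0.21, adjusted p = 0.0157), which lines the exit tunnel in bacteria, mRpL13 (0.22, adjusted p = 0.0181) and mRpL20 (0.25, adjusted p = 0.0201), counterparts of bacterial assembly proteins, and mRpL14 (0.19, adjusted p = 0.0365), which faces the small subunit in bacteria. mRpL39 (0.21, adjusted p = 0.023) and mRpS18A (0.17, adjusted p = 0.0397) were higher too, and mRpL42 was lower (-0.29, adjusted p = 0.022). For all of these but mRpL42 every CAG100 array exceeded every CAA/G105 array. The genes were picked because they passed on these same arrays, so this adds no support. Of the 8966 tested probe sets, 1090 lay above and 1185 below in this way, beside 12 and 3 of the 69 genes. For mRpL22 the values were 11.67, 11.64, 11.89 and 11.75 in CAG100 and 11.56, 11.48, 11.53 and 11.53 in CAA/G105. Its CAG0 arrays, at 11.61, 11.71, 11.60 and 11.69, overlapped CAG100 and lay above CAA/G105. Against CAG0, the differences in CAG100 and CAA/G105 were 0.09 and -0.13 for mRpL22, 0.16 and -0.06 for mRpL13, and 0.09 and -0.16 for mRpL20. They were 0.005 and -0.19 for mRpL14, 0.15 and -0.06 for mRpL39, 0.06 and -0.11 for mRpS18A, and -0.06 and 0.23 for mRpL42. The count of 11 genes dropped to 4 without CAG100 replicate 4 and to 6 without CAG100 replicate 3, CAA/G105 replicate 2 or CAA/G105 replicate 3. mRpL14, mRpL20, mRpL39, mRpS16 and mRpS18A did not pass without CAG100 replicate 3 or 4 or CAA/G105 replicate 2 (adjusted p between 0.0593 and 0.115). Without CAA/G105 replicate 3, mRpL20, mRpL39, mRpL42, mRpS16 and mRpS18A were lost (0.0608 to 0.118), and without CAG100 replicate 2, mRpL14, mRpS16 and mRpS18A (0.0723 to 0.0966). mRpL13 was lost without CAG100 replicate 4 (0.0543), mRpL42 without CAG100 replicate 4 or CAA/G105 replicate 4 (0.0505 and 0.061) and mRpS18A without CAG0 replicate 4 (0.0548). A neighbouring gene passed the same way in this comparison for 3 of the 11 genes. These were if beside mRpL22 (0.18, adjusted p = 0.0304), Prosbeta2 beside mRpL39 (0.16, adjusted p = 0.0199) and pch2 beside mRpS18A (0.51, adjusted p = 0.00708). CG31460, on the other side of mRpS18A, passed the opposite way (-0.62, adjusted p = 0.00495). A gene on each side was looked at, and 10.4% of all probe sets passed higher and 10.5% lower in this comparison. Only mRpS6 and mRpL50 passed in this comparison without the arrays that lack Akh signal. With alternatives of filter and model counted too, mRpL14 passed under 13 of 23, mRpS16 under 15 and mRpS18A under 11.

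The stalk of the large subunit recruits translation factors, and neither mRpL12 nor mRpL10 of this region passed. mRpL12, known in flies for a role in growth driven by cyclin D and Cdk4, had log2 12.40, 12.38, 12.57 and 12.54 in CAG100, 12.33, 12.17, 12.35 and 12.44 in CAA/G105, and 12.38, 12.49, 12.32 and 12.45 in CAG0, and the genotypes overlapped (differences 0.06, -0.09 and 0.15 in CAG100 against CAG0, CAA/G105 against CAG0 and CAG100 against CAA/G105). mRpL10, the base of the stalk, came closest, with CAG100 minus CAA/G105 at 0.26 (95% interval 0.07 to 0.44, adjusted p = 0.0506), and it passed under 8 of 23 alternatives. mRpL4, which lines the exit tunnel in bacteria, had differences of -0.14 in CAG100 (adjusted p = 0.162) and -0.13 in CAA/G105 (adjusted p = 0.21) against CAG0. The probe set shared by mRpL53 and CG33155 was higher in CAG100 by 0.33 against CAG0 (adjusted p = 0.00552) and by 0.31 against CAA/G105 (adjusted p = 0.0063), but it cannot be assigned to either gene and is not counted. The second probe sets of mRpS11 and mRpL47 passed nowhere, like those counted for these genes.

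The other genes among the 10 largest differences each way passed nowhere. mRpL48 lay between log2 10.11 and 10.26 in CAG100, 9.90 and 10.15 in CAA/G105, and 9.40 and 10.16 in CAG0, and its difference of 0.32 in CAG100 against CAG0 did not pass (adjusted p = 0.131). mRpL18 had 0.23 (adjusted p = 0.0837) and mRpS17 0.18 (adjusted p = 0.153) in CAG100 against CAG0, and mRpS2, mRpL40, mRpL28, mRpL44, mRpL23 and mRpL38 lay between -0.12 and -0.04. In CAA/G105 against CAG0, mRpL3 had -0.19 (adjusted p = 0.0625) with overlapping arrays, and mRpL35 had 0.16 (adjusted p = 0.401). In CAG100 against CAA/G105, mRpS11, mRpL45 and mRpL32 lay between -0.06 and -0.04.

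By subunit, 3 of 44 large and 4 of 25 small subunit genes passed in CAG100 against CAG0, 2 of 44 and 1 of 25 in CAA/G105 against CAG0, and 8 of 44 and 3 of 25 in CAG100 against CAA/G105. These are 6.82% and 16%, 4.55% and 4%, and 18.2% and 12%. Each was below the 18.3%, 13.2% and 20.8% of all probe sets. Median differences of the large and small subunit were 0.07 and 0.08, then 0.00 and 0.02, then 0.10 and 0.07. The mean of the large subunit genes minus that of the small subunit genes was -0.07, -0.08, -0.09 and -0.07 on the CAG100 arrays, -0.12, -0.09, -0.11 and -0.08 on the CAA/G105 arrays, and -0.11, -0.12, -0.12 and -0.16 on the CAG0 arrays. CAG100 was thus above CAG0 on every array. Without mRpL54, mRpS24 and mRpS6 the ranges were -0.19 to -0.17 in CAG100, -0.19 to -0.15 in CAA/G105 and -0.18 to -0.12 in CAG0, and the CAG100 and CAG0 arrays overlapped, so the separation rested on these genes.

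A list of 16 tested genes held translation factors and ribosomal proteins with other names, and with them the mitochondrial transcription and RNA factors mtTFB2, mTTF, mTerf3, mTerf5 and bsf. In CAG100 against CAG0, 2 rose and 1 fell (18.8%, beside 18.3% of all probe sets). In CAA/G105 against CAG0, 3 rose (18.8%, beside 13.2%), and in CAG100 against CAA/G105, 1 fell (6.25%, beside 20.8%). mtTFB2 accounts for 1 of the rises in each of the comparisons with CAG0. mEFTs, the exchange factor of the mitochondrial elongation factor Tu, rose by 0.26 in CAG100 (adjusted p = 0.0356) and by 0.44 in CAA/G105 (adjusted p = 0.00247) against CAG0. mEFTu2, one of the elongation factors Tu, fell in CAG100, by 0.31 against CAG0 (adjusted p = 0.0197) and by 0.47 against CAA/G105 (adjusted p = 0.00149), and mRRF1, a ribosome recycling factor, rose by 0.54 in CAA/G105 (adjusted p = 0.0229). The ribosomal proteins tko and bonsai, homologues of bacterial S12 and S15, had differences of -0.03 and 0.02 in CAG100 against CAG0 and passed nowhere. Of 14 tested mitochondrial aminoacyl-tRNA synthetases, which charge the tRNAs used on this ribosome, SerRS-m rose (0.32) and AspRS-m fell (-0.35) in CAG100 against CAG0, GluRS-m rose (0.48) in CAA/G105 against CAG0, and ValRS-m was lower (-0.60) in CAG100 than in CAA/G105, which makes 14.3%, 7.14% and 7.14% of them in these comparisons.

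Among 8 tested genes for mitochondrial DNA replication and transcription, mtTFB2, mTTF and bsf also stand in the list of 16. Of the 8, 2 passed in CAG100 against CAG0, 1 in CAA/G105 against CAG0 and 2 in CAG100 against CAA/G105. These are 25%, 12.5% and 25%, beside 18.3%, 13.2% and 20.8% of all probe sets. TFAM, which packages mitochondrial DNA and starts its transcription, fell in CAG100, by 0.42 against CAG0 (1.34-fold lower, adjusted p = 0.00163) and by 0.42 against CAA/G105 (adjusted p = 0.00135). Mean log2 expression of TFAM was 10.02 ± 0.06 in CAG100 brains, 10.44 ± 0.11 in CAA/G105 brains and 10.44 ± 0.10 in CAG0 brains (SD, n = 4 each). mtTFB2, a mitochondrial transcription factor, rose by 0.43 in CAG100 (adjusted p = 0.00371) and by 0.66 in CAA/G105 (adjusted p = 0.000163) against CAG0, and PNPase, an RNA-degrading enzyme of mitochondria, was lower in CAG100 than in CAA/G105 (-0.48, adjusted p = 0.00569). None of the 5 tested regulators of mitochondrial and growth genes (Cdk4, CycD, Dref, Ets97D and ewg) passed in limma in any comparison, nor did any at an unadjusted p under 0.05.

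The ribosome of the cytosol and the respiratory chain gave the nearest comparison. Genes with symbols starting with RpL or RpS stood for the cytosolic ribosomal proteins, so that list goes by name alone. Of 33 tested, 13 rose and none fell in CAG100 against CAG0, with RpL24-like and RpL7-like among the 13. In CAA/G105 against CAG0, 3 rose and none fell, and in CAG100 against CAA/G105, 6 rose and none fell. The shares that rose were 39.4%, 9.09% and 18.2%, beside 7.86%, 5.49% and 10.4% of all probe sets and 7.25%, 2.9% and 11.6% of the mitochondrial ribosomal protein genes. At an unadjusted p under 0.05 limma gave 22, 6 and 11 higher and 0 lower in these comparisons. Their median differences of 0.08, 0.03 and 0.06 were close in size to the 0.07, 0.01 and 0.08 of the mitochondrial ribosomal protein genes. RpL27 had the largest rise among them, by 0.49 in CAG100 and 0.40 in CAA/G105 against CAG0. Of 53 tested genes of oxidative phosphorylation, 6 rose and none fell in CAG100 against CAG0, 3 rose and 4 fell in CAA/G105 against CAG0, and 15 rose and 1 fell in CAG100 against CAA/G105, with medians of 0.07, -0.01 and 0.09. The shares that rose were 11.3%, 5.66% and 28.3%. At an unadjusted p under 0.05 limma gave 18 higher and 1 lower, 3 higher and 6 lower, and 30 higher and 1 lower. The medians in CAG100 were of similar size in these gene groups, the shares that passed were not, and the difference between the groups was not tested. A share that passes depends on the spread between arrays as well as on the size of a difference. Against CAG0, RpL36A passed in CAG100 at 0.13 (SE 0.02) and RpL37A at 0.09 (SE 0.03). For mRpL41 a difference of 0.12 (SE 0.06) did not pass in limma (adjusted p = 0.177). The shares therefore do not rank the groups by size of response. Of 5 pairs of control probe sets for RNA quality and amplification, 1 separated CAG100 from both other genotypes. The 3′ probe set minus the 5′ probe set of eIF-4a lay between 1.83 and 2.01 in CAG100, 2.10 and 2.27 in CAA/G105, and 2.23 and 2.36 in CAG0. CAG100 was below both others on every array. The same measure of Actin overlapped, with means of 1.42, 1.62 and 1.43 in CAG100, CAA/G105 and CAG0, as did that of Act5C (1.91, 1.91 and 2.02). For Gapdh (1.72, 1.77 and 1.68) and its second set (2.52 in CAG100 and 2.71 in CAG0), CAG100 lay below CAA/G105 on every array and overlapped CAG0. The first Gapdh pair was also higher in CAA/G105 (1.74 to 1.815) than in CAG0 (1.64 to 1.73) on every array. It thus separated CAA/G105 from both other genotypes. The part of these differences in the shift was not tested.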

How the data were processed

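Per the labels' protocols, RNA was amplified as cDNA and labelled with biotin, and each sample has 1 single-colour array. The authors deposited log2 values per probe set, made with GCRMA and Partek per the submitters' processing notes, and their versions are not given in the sources used here. GCRMA corrects background and normalises across arrays, so a shift common to all genes would not remain in the values. They were used as deposited. Of the 18952 probe sets, 13647 name 1 gene. Symbols came from the array annotation, and 13544 of those probe sets matched a gene table.

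With limma 3.58.1 in R 4.3.3, a linear model of the 3 genotypes on the 12 arrays, with a variance trend, was fitted to the 8966 probe sets of log2 4 or more on 4 or more arrays. It was tested on simulated data. Benjamini-Hochberg adjustment ran over all of them, with a threshold of 0.05. Named genes were every member that passed, the 10 largest differences each way per comparison, and the 3 highest and lowest means (mRpS5, mRpS11, mRpS21, mRpL9, mRpS14 and mRpS18C). Up to 4 passing genes were named from each list of mitochondrial translation, tRNA synthetase and mitochondrial DNA genes. Passing genes of the other lists were named only in part. Those of the haemocyte and gland markers and of oxidative phosphorylation are not named. mRpL12, the second and shared probe sets, tko, bonsai, elav, nSyb, repo, Arr2, Yp1, the regulators and the neighbouring genes lie outside that rule and were picked with their values known. The members and lists were chosen with earlier results of these data known. Alternatives covered filter, scaling, variance model, array weights, arrays fitted, replicate block, threshold, choice of probe set and leaving out arrays. A planned search of promoter motifs was not run, and no sequences are printed.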

Additional observations from a re-analysis of the deposited data

Results flagged for a closer look

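In groups of 4 arrays, 1 array was marked when its gap to the nearest other array took up most of the group's range. Of 114 groups tested 2 were marked, and chance alone marks about 1 group in 20. mRpL14 had log2 11.97 on CAA/G105 replicate 2, below the 12.19 to 12.21 of the other CAA/G105 arrays. mRpL14 passed in CAG100 against CAA/G105 with that array and not without it (adjusted p = 0.0856). With that array kept, it also failed with no filter on low values (0.0708) and with a variance without trend (0.0532). It failed too with only the 2 genotypes compared (0.0552) and with a replicate block (0.074), and passed under 13 of 23 alternatives. mRpL54 had log2 11.43 on CAA/G105 replicate 1, above the 11.13 to 11.17 of the other CAA/G105 arrays, and its rise against CAG0 passed with and without that array.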

How the results depend on the processing

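Of 21 gene results that passed, 8 passed under all 23 alternatives, and 1 more failed only at the stricter threshold of 0.01. The 8 were mRpS24 and mRpL54 in both comparisons with CAG0, mRpS6 in both comparisons with CAG100, mRpL33 in CAG100 against CAG0 and mRpL50 in CAG100 against CAA/G105. Of 40 named gene results that did not pass, 8 passed under some alternative. The number of genes that passed in CAG100 against CAG0 was 7, and 15 with every array shifted to 1 common median. In CAA/G105 against CAG0 it was 3, and 5 with that shift, 5 with quantile normalization and 6 with array weights. In CAG100 against CAA/G105 it was 11, and 3 at a threshold of 0.01 and 2 without the arrays that lack Akh signal, an alternative added after seeing the data. Leaving out single arrays gave 6 to 10, 3 to 5 and 4 to 14 genes in these comparisons, with 5 in CAA/G105 against CAG0 without CAG0 replicate 3. Median differences then ranged from 0.05 to 0.12, from -0.03 to 0.04 and from 0.04 to 0.11. Differences near 0 changed sign for mRpL38 in CAG100 against CAG0 without CAG0 replicate 4 (0.00119, range -0.10 to 0.00119 over single arrays left out) and for mRpL32 in CAG100 against CAA/G105 without CAG100 replicate 1 or CAA/G105 replicate 4 (0.0283 and 0.0216, range -0.0948 to 0.0283). Over all probe sets, the count in CAG100 against CAG0 was 1639, and 797 at a threshold of 0.01 and 948 without the arrays that lack Akh signal. In CAG100 against CAA/G105 it was 1869, and 979 and 924, and in CAA/G105 against CAG0 it was 1184, and 642 at 0.01. Deviations of arrays with the same replicate number correlated between -0.26 and 0.39, and 5 of 12 arrays correlated best with their own number. The correlations lay between 0.04 and 0.34 for replicate 4 and between -0.03 and 0.03 for replicate 2. These values do not settle whether the numbers pair some of the samples. With a replicate block, 7, 3 and 10 genes passed. The causes of these changes were not tested. The arrays give no depth, and differences well under the spread between arrays were not detectable with 4 per genotype.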
